A study of Mus musculus with 2 samples.

Results

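The purinergic receptors and ectonucleotidases described here are 10 genes, P2ry6, P2ry10, P2ry12, P2ry14, P2rx4, P2rx7, Adora2a, Adora2b, Entpd1 and Nt5e, chosen by name from the 27998 genes counted in each library. Each symbol matched 1 gene entry. In 3116 cells these genes held 7045 of 22229861 unique molecular identifiers (UMIs, each counted once per captured molecule), from 65 UMIs for Adora2a to 2143 for P2rx4.

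The cells came from tumours of PyMT mice, labelled wild type, on the C57BL/6N background, which carry the polyoma middle T oncogene, and were selected on CD11c, an integrin of dendritic cells and many macrophages. The only group was 2 libraries, called replicate 1 and replicate 2, and the comparisons below are between cell classes within them. The labels give no age, number of animals or promoter of the transgene, and do not state that each library is a different animal. The p-values therefore measure only how far differences between classes vary from 1 of these libraries to the other. The estimate of this spread is shared by all classes of the fit, and the spread may be technical. Replicate 1 held 17369071 UMIs and gave 1900 cells with a median of 5670 UMIs, and replicate 2 held 13317214 and gave 1216 cells with a median of 7141.5. Cell barcodes shared by the libraries numbered 2. The labelled cell type is myeloid. Itgax, which encodes CD11c, had a UMI in 34.3% and 43.3% of cells of replicates 1 and 2, and Csf1r, the receptor of macrophage growth factors, in 59.4% and 59.3%. In the 152 epithelial-like cells, which should lack both, the shares were 6.58% for each gene at a median of 8725.5 UMIs, against 65.6% for Itgax and 92.5% for Csf1r in macrophage-like cells at 6493. In resident macrophage-like cells Itgax was seen in 8.52% at a lower median of 4603 UMIs, so this share and the epithelial-like share were taken at different depths. Relative to all UMIs of the class, Itgax had 26.7 CPM (defined below, here without TMM) in resident macrophage-like cells. In epithelial-like cells it had 8.08 CPM on the same scale. Another 47 cells were fibroblast-like. Clusters were named from fixed marker genes, and "like" marks such a name. The named myeloid classes are macrophage-like (506 cells), resident macrophage-like (411 cells, led by Ccl8, Cd209f and Folr2), monocyte-like (350 cells, led by Lyz1, Retnla and Ear2) and cDC2-like (326 cells), the conventional dendritic cells of type 2. The other immune classes are cDC1-like (181 cells, conventional dendritic cells of type 1), lymphocyte-like (104 cells with T and NK cell markers) and mature DC-like (72 cells). Clusters without a name are called by leading genes and get levels only: Sirpb1c/Fcgr4 (494 cells), Arg1/Fabp5 (138) and Cd7/Ly6c2 (60). Orders of levels below cover the 13 classes and clusters of the fit, and leave out the neutrophil-like (16 cells), endothelial-like (15) and B cell-like (15) cells and the Cxcl9/Dnase1l3 cluster (52). The monocyte-like class rests on 4 of 12 monocyte markers. When each of its 350 cells was gated singly, 143 were macrophage-like, 97 cDC2-like and 83 monocyte-like. Of the 411 resident macrophage-like cells 329 came from replicate 1 and 82 from replicate 2. Gated singly, 397 of them were macrophage-like and 12 resident macrophage-like. Their summed resident macrophage markers had 2176 and 946 CPM (defined below) in replicates 1 and 2. Their summed monocyte markers had 6628 and 1610 CPM.

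Cells release ATP and other nucleotides when stressed or dying, and neighbouring cells read them through P2X receptors, which are ion channels opened by ATP, and P2Y receptors, which are G protein-coupled. CD39, encoded by Entpd1, strips ATP and ADP to AMP, and CD73, encoded by Nt5e, turns AMP into adenosine. Adenosine acts on Gs-coupled receptors such as those encoded by Adora2a and Adora2b, which in tumours are known for damping lymphocyte and dendritic cell responses.

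Several of these genes sit side by side in the genome (GRCm38 coordinates from GENCODE M21, 1-based). P2ry14 (chr3:59113855-59153618) and P2ry12 (chr3:59216272-59262871) lie 62653 bases apart on the minus strand, with P2ry13 between them and Gpr171 12033 bases from P2ry14, all inside the gene Med12l on the opposite strand. Med12l had 20 UMIs in all cells, against 281 for P2ry12 and 338 for P2ry14. P2ry10 (chrX:107088492-107104974) lies 43952 bases from its relative P2ry10b, listed in the files as A630033H20Rik, on the same strand. Of the 2979 words of 50 bases in P2ry10 transcripts, 113 (3.79%) also occur in another gene, and how reads in those words were counted was not tested. P2rx7 and P2rx4 are 16111 bases apart on chromosome 5. P2ry6 (chr7:100937630-100974649) lies 21918 bases from P2ry2, a further P2Y receptor gene with 66 UMIs in all cells. The remaining members are Adora2a (chr10:75316877-75334784), Adora2b (chr11:62248984-62266453), Entpd1 (chr19:40612366-40741602) and Nt5e (chr9:88327197-88372092). Entpd1 overlaps 3 further annotated genes on its own strand, Gm16027, Gm8783 and AC166063.1, and whether reads were split with them was not tested.

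The promoters of the pairs P2ry12 and P2ry14 and P2ry10 and P2ry10b are shown because the genes of each pair were highest in different classes. Each is a RefSeq window (GRCm38.p6) of 250 bases before to 50 after an annotated start, 5′ to 3′ on the gene's strand. P2ry12 is chr3:59262936-59263235 (minus strand), P2ry14 chr3:59153443-59153742 (minus), P2ry10 chrX:107089083-107089382 (plus, the second of its annotated starts) and P2ry10b chrX:107149365-107149664 (plus, the third of its starts). Capitals mark a match to GAGGAAGT, a motif of the type bound by the myeloid factor PU.1, read on the opposite strand.
P2ry12: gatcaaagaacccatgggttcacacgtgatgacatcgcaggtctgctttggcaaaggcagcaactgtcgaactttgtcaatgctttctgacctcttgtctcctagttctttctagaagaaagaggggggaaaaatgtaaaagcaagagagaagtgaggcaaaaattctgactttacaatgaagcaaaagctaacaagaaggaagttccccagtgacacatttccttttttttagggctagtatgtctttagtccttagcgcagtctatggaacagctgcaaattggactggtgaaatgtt
P2ry14: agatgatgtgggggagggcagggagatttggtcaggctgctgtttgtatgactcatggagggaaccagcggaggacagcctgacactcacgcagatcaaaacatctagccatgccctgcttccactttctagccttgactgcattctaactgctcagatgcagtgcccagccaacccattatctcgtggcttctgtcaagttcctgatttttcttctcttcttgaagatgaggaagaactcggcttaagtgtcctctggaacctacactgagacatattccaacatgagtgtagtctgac
P2ry10: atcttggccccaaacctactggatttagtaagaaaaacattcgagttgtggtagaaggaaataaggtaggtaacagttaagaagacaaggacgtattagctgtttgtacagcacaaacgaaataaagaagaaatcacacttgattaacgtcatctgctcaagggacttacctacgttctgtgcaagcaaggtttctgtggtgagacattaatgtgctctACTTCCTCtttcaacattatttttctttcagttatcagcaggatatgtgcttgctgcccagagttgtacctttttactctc
P2ry10b: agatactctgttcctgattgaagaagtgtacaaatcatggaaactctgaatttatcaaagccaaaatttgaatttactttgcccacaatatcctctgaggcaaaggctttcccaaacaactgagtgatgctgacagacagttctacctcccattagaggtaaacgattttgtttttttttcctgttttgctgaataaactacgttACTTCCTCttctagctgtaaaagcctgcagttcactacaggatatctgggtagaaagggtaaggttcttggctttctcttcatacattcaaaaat

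The match began 31 bases before the start in P2ry10 and 45 before it in P2ry10b. The same letters occurred on either strand in 3.20% of 32851 RefSeq mouse promoters. That share is per window, and several members have more than 1 annotated start. Among the windows not shown, the letters occurred in that of the second start of P2rx7. They were absent at every other start of P2ry10 and P2ry10b, so the windows shown for these genes are those with the match. A composite motif of the ETS and IRF factor families (GGAA, any 2 bases, then GAAA; in 2.72% of promoters) and an interferon-type motif (GAAA, any 2 bases, then GAAA; in 3.44%) were in none of the windows of the 8 members and P2ry10b that the table held. The letters are a description of these windows and say nothing of whether a factor binds.

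Levels below are CPM, the UMIs of a gene relative to all UMIs of its class and library, scaled by TMM (trimmed mean of M-values), and a call means an adjusted p under 0.05 by edgeR's quasi-likelihood test with Benjamini-Hochberg adjustment over 4909 genes kept out of clustering. Folds are log2 differences with their standard error (SE). RNA free in the droplets was estimated at 0.667% to 3.23% of UMIs in the immune classes, which gives a member at most 2.13 UMIs in a class and library.

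**Figure D1:**
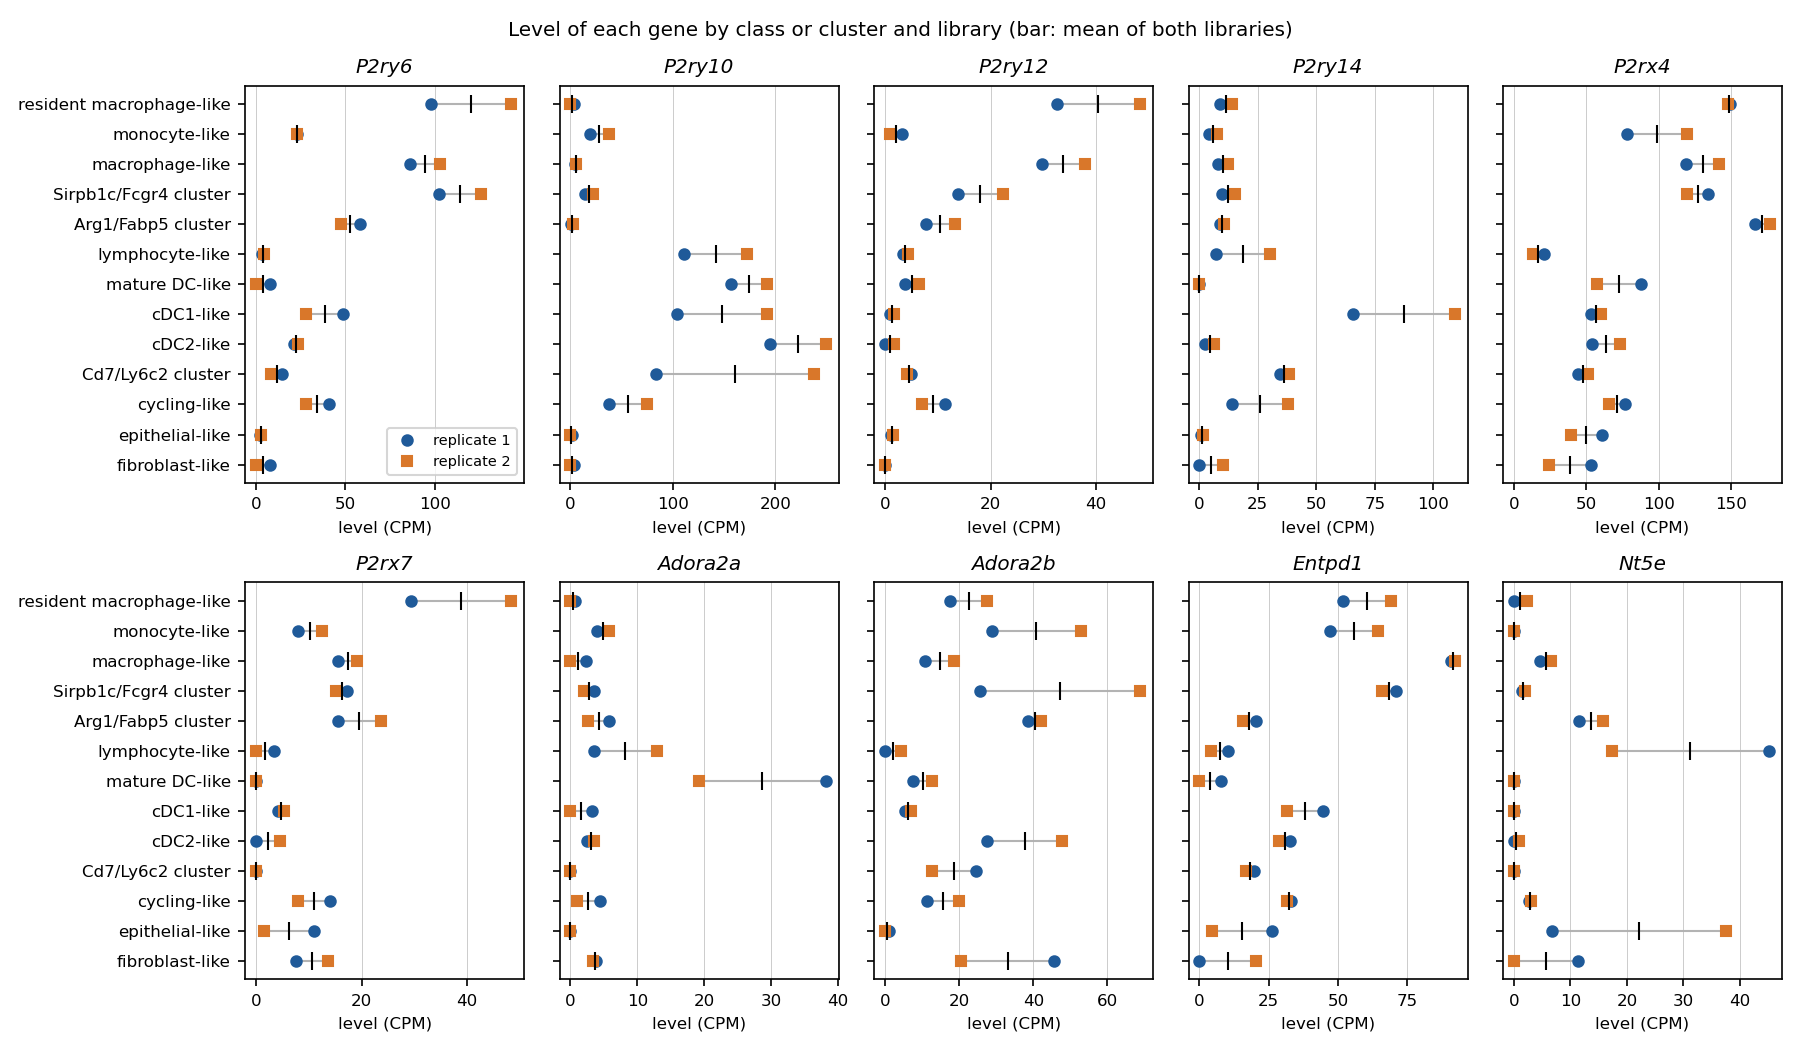
Level of the 10 genes in each class or cluster (rows), in CPM on a linear axis that differs between panels, with a circle for replicate 1, a square for replicate 2 and a bar for their mean. P2ry10 was high in the dendritic and lymphocyte-like rows, and P2ry14 in cDC1-like cells. P2ry6, P2ry12, P2rx7 and Entpd1 were high in the macrophage-like and resident macrophage-like rows. In the Arg1/Fabp5 row Entpd1 had 20.3 and 15.8 CPM.

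P2ry10 was a gene of dendritic and lymphocyte-like cells, and its difference between macrophage-like and cDC2-like cells had the largest size among the 10 genes. Its product is a receptor that responds to lysophosphatidylserine and is placed in the P2Y family by sequence. Its level was 4.69 CPM in replicate 1 and 5.57 CPM in replicate 2 in macrophage-like cells, against 195 and 249 CPM in cDC2-like cells. The groups did not overlap, and the fitted difference was -5.45 ± 0.32 (SE; adjusted p 2.23e-18 by edgeR, n = 2 libraries). Of the 11 UMIs of macrophage-like cells in replicate 2, 1.18 were the number that free RNA would give. Lymphocyte-like cells had 111 and 173 CPM, mature DC-like cells 156 and 192 CPM, and cDC1-like cells 104 and 192 CPM. Each of these ranges lay below that of cDC2-like cells, but none of the differences was called: -0.66 ± 0.26 for lymphocyte-like cells (adjusted p 0.0841), -0.32 ± 0.26 for mature DC-like cells (0.532) and -0.63 ± 0.22 for cDC1-like cells (0.0642), all by edgeR. The Cd7/Ly6c2 cluster spread from 83.8 to 238 CPM, and resident macrophage-like cells had 3.75 and 0 CPM.

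Counted per cell, the same split held. With every cell thinned to 1900 UMIs, P2ry10 had a UMI in 0.988% of 506 macrophage-like cells (exact 95% interval 0.322% to 2.29%), against 31% of 326 cDC2-like cells (26% to 36.3%). The share in epithelial-like cells, which set the background, was 0 of 152 cells, an exact upper limit of 2.40%. Before thinning the shares were 2.96% in macrophage-like cells at a median of 6493 UMIs, 61.3% in cDC2-like cells at 6406, and 1.32% in epithelial-like cells at 8725.5. Shares and limits cover counting error only. P2ry10b did not show this split: it had 18 and 8.60 CPM in macrophage-like cells, against 6.28 and 9 CPM in cDC2-like cells, ranges that overlapped with a difference that was not called (0.66 ± 0.49, adjusted p 0.382 by edgeR). The highest P2ry10b level was in monocyte-like cells, at 21.6 and 25.9 CPM.

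**Figure D2:**
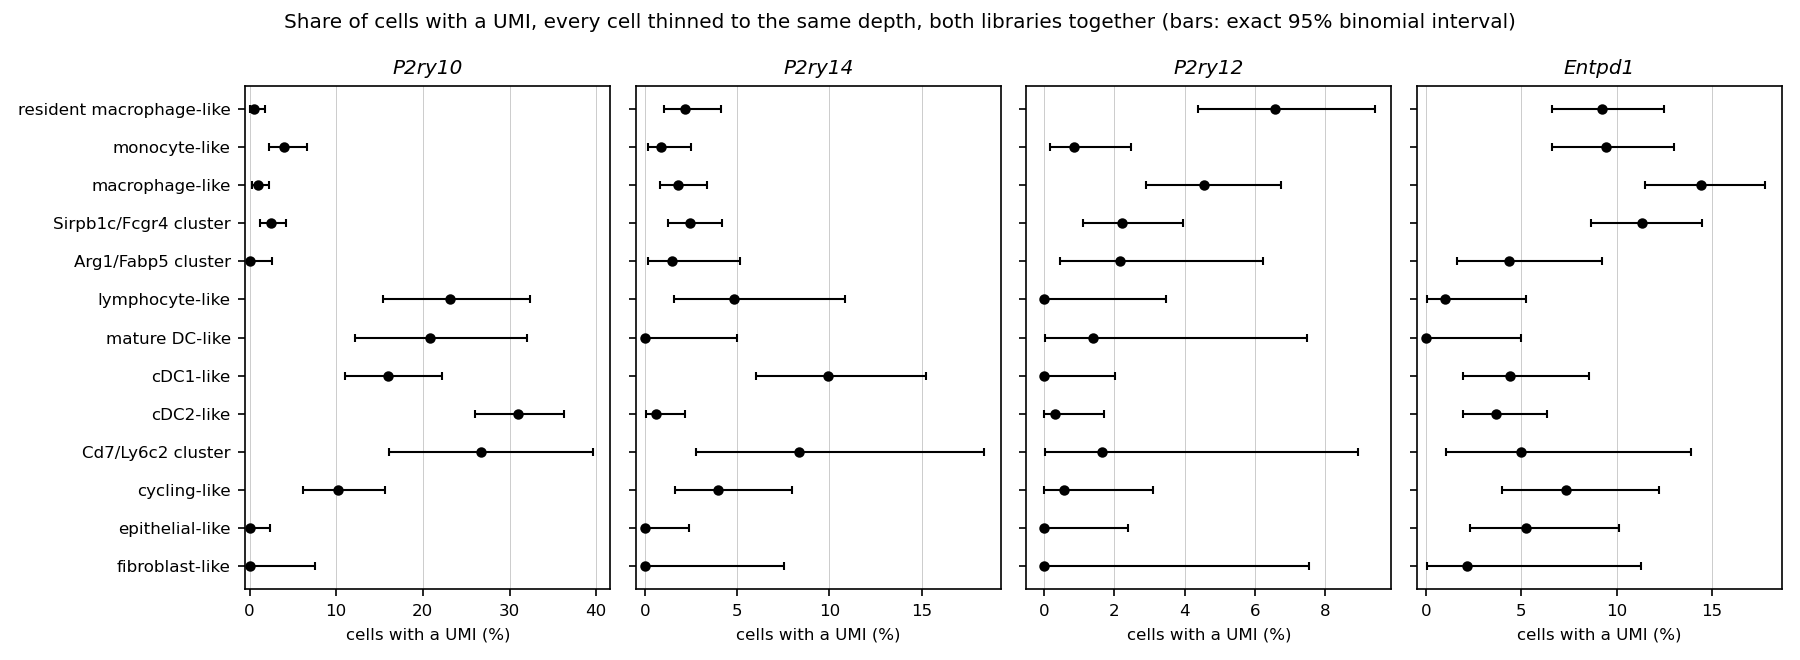
Share of cells with a UMI of P2ry10, P2ry14, P2ry12 and Entpd1 in each class or cluster (rows), in percent, with every cell thinned to 1900 UMIs and both libraries together; bars are exact 95% binomial intervals. The share for P2ry10 was 0.988% in macrophage-like cells, against 31% in cDC2-like cells, and for P2ry14 it was 9.94% in cDC1-like cells and 0.613% in cDC2-like cells.

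P2ry14 marked cDC1-like cells. It encodes a receptor for UDP-glucose and related sugar nucleotides. Its level was 65.8 and 109 CPM in cDC1-like cells, against 2.51 and 6.30 CPM in cDC2-like cells, so the classes did not overlap and the difference was 4.26 ± 0.40 (adjusted p 2.88e-11 by edgeR, n = 2 libraries). Of the 72 mature DC-like cells none had a UMI, which allows an exact upper share of 4.99% of thinned cells. Next in order came the Cd7/Ly6c2 cluster at 34.5 and 38.2 CPM, then cycling-like cells at 14 and 37.7 CPM and lymphocyte-like cells at 6.95 and 30.2 CPM, whose ranges overlapped. Of the 2 clusters of cycling-like cells, the smaller, in which 8 of 10 cDC1 markers were raised, had 31.4 and 140 CPM of P2ry14 without TMM scaling, and the larger had 9.88 and 0 CPM. Macrophage-like, resident macrophage-like and monocyte-like cells held at most 13.8 CPM. Thinned to 1900 UMIs, P2ry14 was seen in 9.94% of cDC1-like cells (6.00% to 15.3%), against 0.613% of cDC2-like cells and 0 of 152 epithelial-like cells.

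P2ry12, the neighbour of P2ry14, was highest in the macrophage classes and had 1.06 and 1.76 CPM in cDC1-like cells. Its product is the ADP receptor best known from platelets and microglia. Macrophage-like cells had 29.7 and 37.9 CPM (113 UMIs), against 0 and 1.80 CPM (2 UMIs) in cDC2-like cells, a pooled ratio of 33.1 (counting interval 8.95 to 277; adjusted p 5.26e-09 by edgeR). Resident macrophage-like cells had 32.5 and 48.4 CPM and overlapped macrophage-like cells (0.21 ± 0.30, adjusted p 0.725 by edgeR). The Sirpb1c/Fcgr4 cluster had 13.9 and 22.3 CPM and the Arg1/Fabp5 cluster 7.72 and 13.2 CPM. Monocyte-like cells had 3.20 and 0.96 CPM, against 29.7 and 37.9 CPM in macrophage-like cells, and this difference of -3.85 ± 0.48 was called (adjusted p 1.31e-08 by edgeR). The platelet markers fixed in the lists summed to at most 0.96 CPM in monocyte-like cells, with 5 of 6 at 0, and at most 3.12 CPM in macrophage-like cells, with 3 of 6 at 0. P2ry13, a further ADP receptor between P2ry14 and P2ry12, was under the filter on low counts: macrophage-like cells held 38 UMIs, against 0 in cDC2-like cells, at least 7.42-fold higher against a floor of 3 counts over both libraries. Gpr171, a receptor placed near the P2Y family by sequence, had 188 and 438 CPM in cDC1-like cells and 3.13 and 5.06 CPM in macrophage-like cells, against 141 and 190 CPM in cDC2-like cells. In mature DC-like cells it had 19.1 and 25.6 CPM, below the 48.6 and 73.4 CPM of lymphocyte-like cells.

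**Figure D3:**
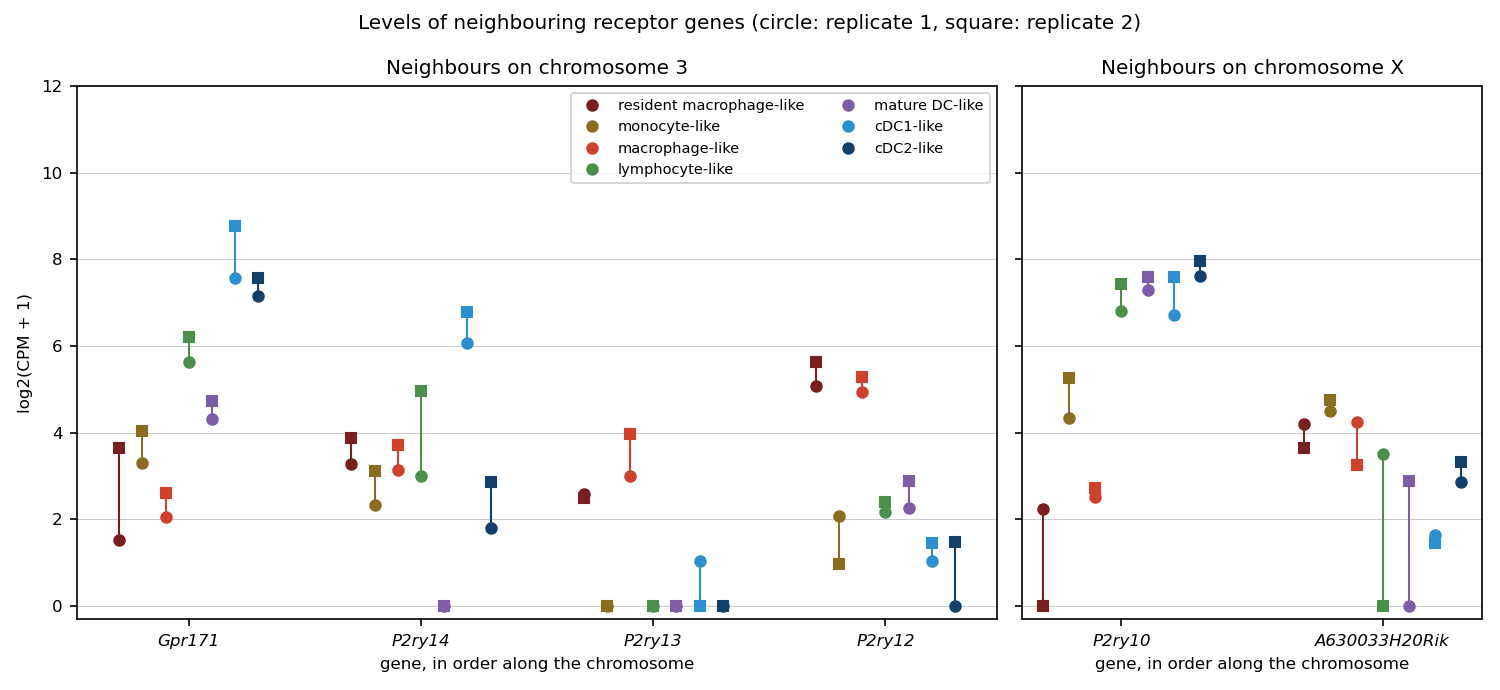
Levels of neighbouring receptor genes on chromosome 3 (left) and X (right), as log2(CPM + 1), with a circle for replicate 1 and a square for replicate 2 of each of 7 classes. Gpr171 and P2ry14 were highest in cDC1-like cells, P2ry13 and P2ry12 in macrophage classes, and P2ry10 was lower in macrophage-like cells (4.69 and 5.57 CPM) than in cDC2-like cells (195 and 249 CPM).

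P2ry6, which encodes a receptor for UDP, was a macrophage gene in these cells. Macrophage-like cells had 85.9 and 103 CPM, against 21.4 and 23.4 CPM in cDC2-like cells, and the difference of 2.07 ± 0.29 was called (adjusted p 1e-07 by edgeR). Resident macrophage-like cells, with 97.6 and 143 CPM, overlapped macrophage-like cells (0.27 ± 0.23, adjusted p 0.508 by edgeR), as did the Sirpb1c/Fcgr4 cluster at 103 and 126 CPM. The Arg1/Fabp5 cluster lay lower, at 57.9 and 47.5 CPM. Monocyte-like cells had 23.2 and 23 CPM, inside the range of cDC2-like cells, and were lower than macrophage-like cells by -2.03 ± 0.27 (adjusted p 5.86e-08 by edgeR). Lymphocyte-like cells had 1 UMI in each library, against 17 and 26 UMIs in cDC2-like cells, a pooled ratio of 0.171 (0.0200 to 0.656; adjusted p 0.0314 by edgeR). That call was lost in 3 of 11 alternatives, among them DESeq2 (adjusted p 0.144).

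Of the ATP-gated channels, P2rx4, a channel found on the surface and in lysosomes, was the member with most UMIs and was detected in both libraries of all 13 classes and clusters of the fit. Macrophage-like cells had 119 and 142 CPM, against 54 and 72.9 CPM in cDC2-like cells (1.02 ± 0.23, adjusted p 4.67e-04 by edgeR). The highest levels were in the Arg1/Fabp5 cluster at 166 and 177 CPM and in resident macrophage-like cells at 149 and 147 CPM. Lymphocyte-like cells were at the low end with 20.8 and 13 CPM, against 54 and 72.9 CPM in cDC2-like cells (-1.88 ± 0.46, adjusted p 0.00217 by edgeR). The dendritic classes overlapped each other: mature DC-like cells had 87.8 and 57.6 CPM, and cDC1-like cells 53.1 and 59.8 CPM.

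P2rx7, the channel that opens at high ATP and is known for inflammasome activation, was highest in resident macrophage-like cells. These had 29.4 and 48.4 CPM, against 15.6 and 19.2 CPM in macrophage-like cells. The ranges did not overlap, but the difference of 1.03 ± 0.37 missed the threshold (adjusted p 0.0557 by edgeR) and passed it without the filter on low counts (0.0372) or with other size factors (0.0448). Macrophage-like cells in turn lay above cDC2-like cells, which had 0 and 4.50 CPM from 5 UMIs, and this difference of 2.70 ± 0.62 was called (adjusted p 7.06e-04 by edgeR). It was 2.88 in replicate 1 and 1.64 in replicate 2 alone. Mature DC-like cells and the Cd7/Ly6c2 cluster had no UMI of P2rx7.

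The adenosine receptors were spread over different cells. Adora2a, the high-affinity receptor, had few UMIs and was highest in mature DC-like cells, with 38.2 and 19.2 CPM (10 and 3 UMIs), against 2.51 and 3.60 CPM (2 and 4 UMIs) in cDC2-like cells. The difference of 3.10 ± 0.88 was called (adjusted p 0.0122 by edgeR). It was 3.03 in replicate 1 and 1.84 in replicate 2 alone. The call held in the 9 alternatives that gave it a value, and Adora2a was not among the genes fitted with cells gated singly or at the finer clustering. Lymphocyte-like cells came next, at 3.47 and 13 CPM from 4 UMIs, and their difference from cDC2-like cells was not called (1.20 ± 1.16, adjusted p 0.608 by edgeR). All other classes and clusters of the fit lay at or under 5.79 CPM, and the 15 B cell-like cells held 1 UMI.

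Adora2b, the receptor that answers to higher adenosine, was a gene of cDC2-like and monocyte-like cells and of the unnamed Sirpb1c/Fcgr4 and Arg1/Fabp5 clusters. Gated singly, 459 of the 494 Sirpb1c/Fcgr4 cells and 134 of the 138 Arg1/Fabp5 cells were macrophage-like. The Arg1/Fabp5 cluster had 38.6 and 42.2 CPM. The low level given next is thus that of the named macrophage-like class, not of all cells with macrophage markers. Fibroblast-like cells, at 45.5 and 20.6 CPM (18 UMIs), overlapped cDC2-like cells. Macrophage-like cells had 10.9 and 18.7 CPM, against 27.6 and 47.7 CPM in cDC2-like cells (-1.33 ± 0.34, adjusted p 0.00212 by edgeR). Monocyte-like cells had 28.8 and 52.8 CPM, against 10.9 and 18.7 CPM in macrophage-like cells (1.43 ± 0.33, adjusted p 6.77e-04 by edgeR). cDC1-like cells were low, at 5.31 and 7.04 CPM, against 27.6 and 47.7 CPM in cDC2-like cells (-2.55 ± 0.49, adjusted p 1.45e-04 by edgeR). In lymphocyte-like cells there was 1 UMI, against 75 in cDC2-like cells, a pooled ratio of 0.0490 (0.00122 to 0.281; adjusted p 6.24e-04 by edgeR). In every immune class but the Cd7/Ly6c2 cluster replicate 2 had more than replicate 1, and the Sirpb1c/Fcgr4 cluster had 25.7 and 68.8 CPM. Both macrophage calls were lost when cells were gated singly, where the differences were -0.27 for macrophage-like minus cDC2-like cells and 0.58 for monocyte-like minus macrophage-like cells, and at the finer clustering.

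Among the classes and clusters of the fit, Entpd1 was highest in macrophage-like cells. Outside it, the 15 endothelial-like cells held 8 and 4 UMIs (115 and 204 CPM without TMM) and the 16 neutrophil-like cells 4 UMIs. Macrophage-like cells had 90.6 and 92.1 CPM, against 32.7 and 28.8 CPM in cDC2-like cells (1.58 ± 0.30, adjusted p 5.26e-05 by edgeR). High Entpd1 did not extend to the Arg1/Fabp5 cluster, of whose 138 cells 134 were macrophage-like when gated singly. It had 20.3 and 15.8 CPM, below cDC2-like cells, a difference that was not tested. Resident macrophage-like cells had 51.9 and 69.1 CPM and lay below macrophage-like cells in both libraries, but the difference of -0.68 ± 0.28 was not called (adjusted p 0.104 by edgeR). Monocyte-like cells had 47.2 and 64.3 CPM, and their difference from macrophage-like cells of -0.72 ± 0.27 was called (adjusted p 0.0415 by edgeR), a call lost in 7 of 11 alternatives. Mature DC-like cells held 2 UMIs in all, against 58 in cDC2-like cells, a pooled ratio of 0.157 (0.0186 to 0.594; adjusted p 0.0413 by edgeR), a call lost in 6 of 11 alternatives. cDC1-like cells, at 44.6 and 31.7 CPM, overlapped cDC2-like cells (0.35 ± 0.37, adjusted p 0.693 by edgeR). In thinned cells Entpd1 was seen in 14.4% of macrophage-like cells (11.5% to 17.8%), against 3.68% of cDC2-like cells (1.92% to 6.34%). The share in epithelial-like cells, thinned alike, was 5.26% (2.30% to 10.1%), an interval that overlapped that of cDC2-like cells. Without thinning, epithelial-like cells held 43 UMIs in replicate 1 and 3 in replicate 2 (26.2 and 4.51 CPM).

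Nt5e was scarce, with 111 UMIs in all cells. Lymphocyte-like cells had 45.2 and 17.3 CPM (17 UMIs), against 0 and 0.900 CPM (1 UMI) in cDC2-like cells, a pooled ratio of 62.4 (9.78 to 2609; adjusted p 1.61e-04 by edgeR). Macrophage-like cells had 19 UMIs, against 1 in cDC2-like cells (pooled ratio 11.1, interval 1.77 to 462), which was not called (adjusted p 0.0567 by edgeR). It was called in 3 of 11 alternatives. Monocyte-like cells had 0 UMIs, against 19 in macrophage-like cells, at least 4.46-fold lower against a floor of 3 counts over both libraries (adjusted p 0.0108 by edgeR). That call was lost in 2 of 11 alternatives. Among the unnamed clusters the Arg1/Fabp5 cluster had 11.6 and 15.8 CPM, and epithelial-like cells had 6.71 and 37.6 CPM. No UMI was found in cDC1-like, mature DC-like or Cd7/Ly6c2 cells.

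The transcripts of the enzymes that together make adenosine from ATP were seen in the same cell 18 times. Of 3116 cells 756 had a UMI of Entpd1 and 77 of Nt5e, and of the 18 with both 7 were macrophage-like, 4 epithelial-like and 3 of the Arg1/Fabp5 cluster. These counts depend on depth, since a cell without a UMI may still hold the transcript. Whether 18 is more than the separate counts of both genes would give was not tested, so it is no sign of paired expression.

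**Figure D4:**
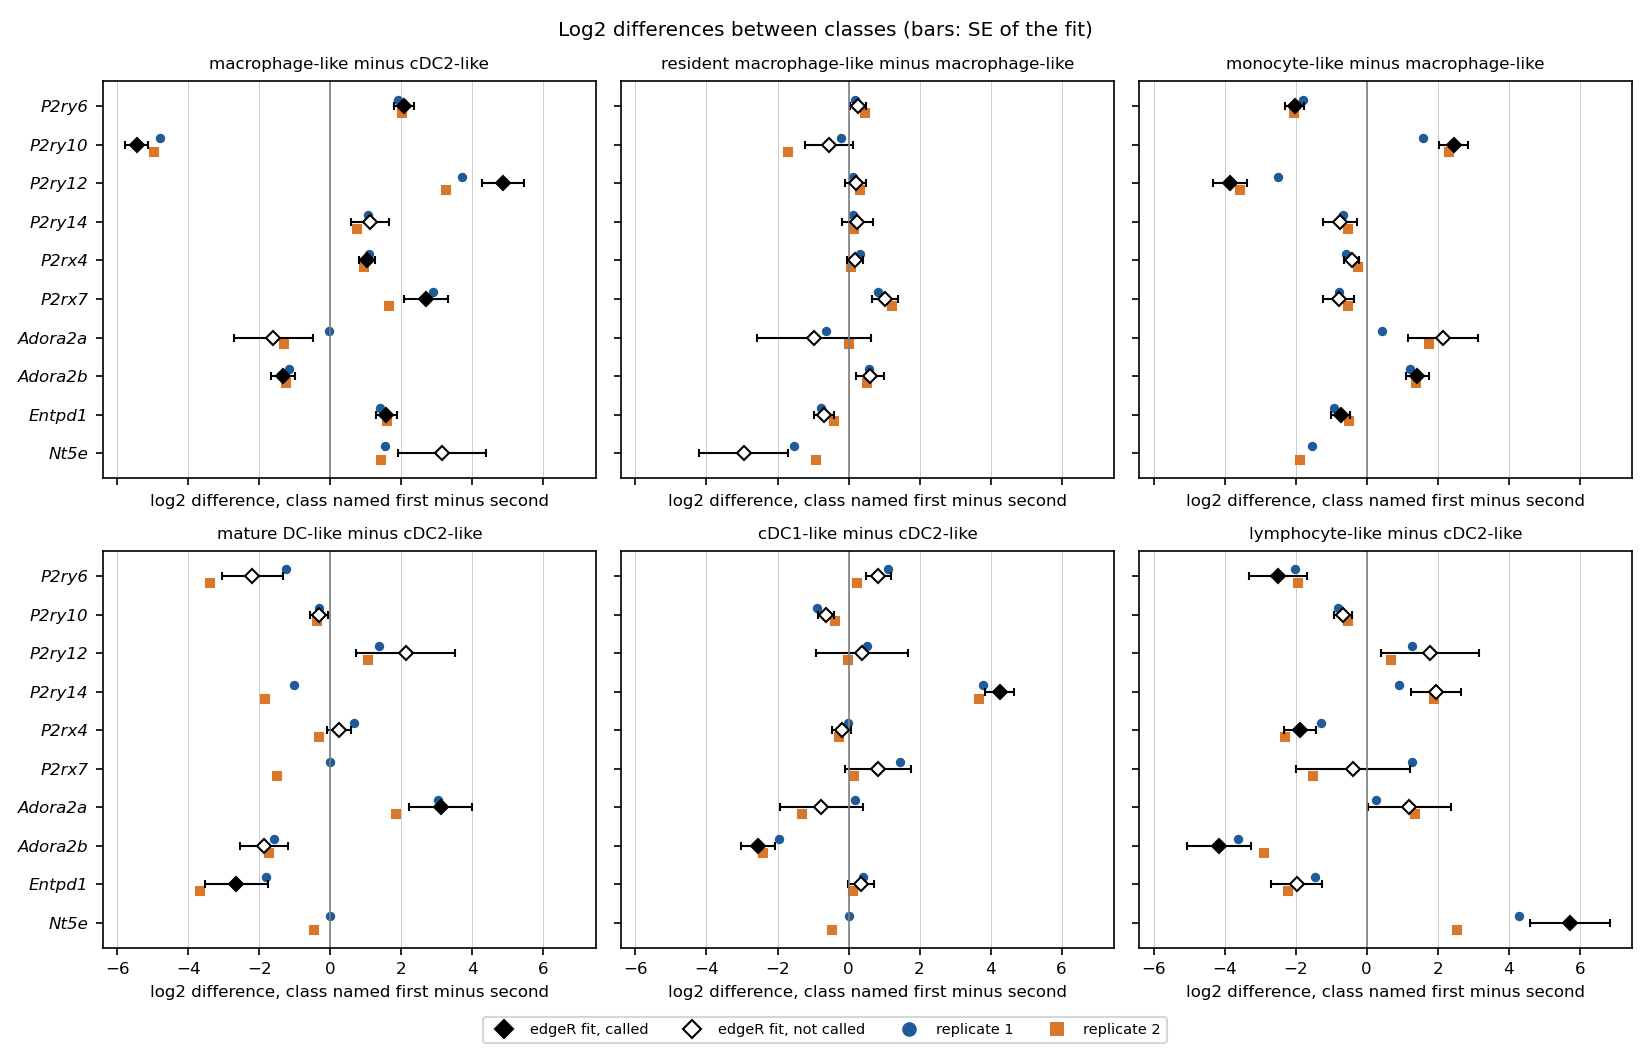
Log2 differences of the 10 genes (rows) in the 6 comparisons of classes, first class minus second; diamonds are the edgeR fit with its SE (filled where called), and circles and squares are replicates 1 and 2 alone with a prior count of 2. Fits are left out where a class had 0 UMIs. P2ry10 at -5.45 and P2ry12 at 4.86 lie farthest from 0 in macrophage-like minus cDC2-like cells, and no diamond is filled in resident macrophage-like minus macrophage-like cells.

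Counted over the 10 genes, macrophage-like cells differed from cDC2-like cells in 7: P2ry6, P2ry12, P2rx4, P2rx7 and Entpd1 were higher and P2ry10 and Adora2b lower. Of all 4909 genes tested 25% were called (13.2% higher, 11.8% lower), and the median difference was 1.35 for the 10 genes and 0.10 for all genes tested. In monocyte-like cells against macrophage-like cells 6 of 10 were called, P2ry10 and Adora2b higher and P2ry6, P2ry12, Entpd1 and Nt5e lower, where 24% of all genes were called (12.4% higher, 11.7% lower). The median difference was -0.74, against -0.04 over all genes tested, and Nt5e lies below this median at its bound too. In this comparison the summed level of all 8 cDC2 markers was 1282 and 1583 CPM in monocyte-like cells, against 100 and 78.4 CPM in macrophage-like cells, with none of the 8 at 0 in either class, and its part in the result was not tested. With cells gated singly, 1 of the 8 genes that could be fitted was called, P2ry6 (-2.69, adjusted p 0.000379 by edgeR), and the count over all genes tested was 392 in place of 1179.

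Lymphocyte-like cells differed from cDC2-like cells in 4 of 10, with Nt5e higher and P2ry6, P2rx4 and Adora2b lower, where 14.1% of all genes were called (6.05% higher, 8.03% lower). The median difference was -0.52 for the 10 genes and -0.04 for all. The summed level of the 10 macrophage markers was 1518 and 5065 CPM in lymphocyte-like cells, against 1013 and 793 CPM in cDC2-like cells, with none at 0, and its part was not tested. cDC1-like cells differed from cDC2-like cells in 2, P2ry14 higher and Adora2b lower. Of all genes 9.74% were called (4.24% higher, 5.5% lower), so that 2 of 10 is near that share. The median difference was 0.08 for the 10 genes and 0.02 for all. Mature DC-like cells differed from cDC2-like cells in 2, Adora2a higher and Entpd1 lower. Here 11.8% of all genes were called (4.93% higher, 6.82% lower), so that 2 of 10 is near the share of all genes. The median difference was -1.94 for the 10 genes and -0.17 for all, but P2ry14, P2rx7 and Nt5e had no UMI in mature DC-like cells. In resident macrophage-like cells against macrophage-like cells 0 of 10 were called by edgeR, where 14% of all genes were called (7.99% higher, 6.05% lower), and the median difference was 0.20, against 0.03 for all. At an unadjusted p under 0.05 there were 3 (P2rx7, Entpd1 and Nt5e), and DESeq2 called 0.

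The wider purinergic lists held 51 genes in the files, of which 26 passed the filter on low counts. In macrophage-like cells 5 were higher and 2 lower than in cDC2-like cells, 26.9% of the 26 and near the 25% of all genes called. In monocyte-like cells 2 were higher and 7 lower than in macrophage-like cells, 34.6% against 24% of all genes. In resident macrophage-like cells 6 were higher and 1 lower than in macrophage-like cells, 26.9% against 14% of all genes. The remaining comparisons with cDC2-like cells had 3 called each, 11.5% of the 26, against 11.8% of all genes for mature DC-like cells (1 higher and 2 lower), 9.74% for cDC1-like cells (2 and 1) and 14.1% for lymphocyte-like cells (1 and 2). The largest differences by absolute fold were as follows. In macrophage-like cells Gpr171 was lower than in cDC2-like cells (-5.35 ± 0.37, adjusted p 2.58e-16 by edgeR), Dpp4, the peptidase CD26 that binds adenosine deaminase in humans, was lower (-3.03 ± 0.38, 8.24e-09), and Gpr34, a lysophosphatidylserine receptor, was higher (4.11 ± 0.52, 2.58e-08).

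Called differences of resident macrophage-like cells lay among these other genes. Cd38, an enzyme that breaks down NAD outside the cell, had 144 and 106 CPM in resident macrophage-like cells, against 14.1 and 28.3 CPM in macrophage-like cells (2.63 ± 0.27, adjusted p 1.08e-10 by edgeR). Slc28a2, a sodium-coupled nucleoside transporter, had 69 UMIs in resident macrophage-like cells, against 6 in macrophage-like cells (4.15 ± 0.54, adjusted p 1.05e-07 by edgeR), and 66 UMIs in monocyte-like cells (3.89 ± 0.54 against macrophage-like cells, 1.47e-07). Lrrc8a, a subunit of the volume-regulated anion channel, was higher in resident macrophage-like cells (2.09 ± 0.60, adjusted p 0.0121 by edgeR). In monocyte-like cells Gpr34 was lower than in macrophage-like cells (-2.58 ± 0.40, 1.44e-06), and the ecto-enzyme gene Enpp1 had 1 UMI, against 20 (pooled ratio 0.0710, interval 0.00171 to 0.444).

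Among dendritic classes, Gpr171 was lower in mature DC-like cells than in cDC2-like cells (-2.86 ± 0.46, adjusted p 7.31e-06 by edgeR), and Gpr183, a receptor for oxysterols, was higher (1.21 ± 0.38, 0.0233). Slc29a1, an equilibrative nucleoside transporter, had 1 UMI in mature DC-like cells, against 39 in cDC2-like cells (pooled ratio 0.117, interval 0.00289 to 0.691). In cDC1-like cells Adk, adenosine kinase, was higher (1.48 ± 0.45, adjusted p 0.0251 by edgeR), Gpr171 was higher (0.84 ± 0.24, 0.0134), and Panx1, an ATP release channel, had 1 UMI, against 21 in cDC2-like cells (pooled ratio 0.0602, interval 0.00145 to 0.374). In lymphocyte-like cells Gpr34 was higher than in cDC2-like cells (3.76 ± 0.73, adjusted p 1.48e-04 by edgeR), and Dpp4 (-2.63 ± 0.60, 0.00101) and Gpr171 (-1.45 ± 0.34, 0.00166) were lower. Gpr34 was also higher in macrophage-like cells than in cDC2-like cells. The summed macrophage markers had 1518 and 5065 CPM in lymphocyte-like cells, against 1013 and 793 CPM in cDC2-like cells. Their part in the Gpr34 difference was not tested.

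The genes with the pattern most like each member, by Pearson correlation of log2 CPM over 26 sums of class and library, are given as a description, since the sums share 2 libraries. For P2ry6 they were Unc93b1 (0.92), Lrrc25 (0.90) and Fcgr2b (0.90), and for P2ry12 Lgmn (0.86), Stab1 (0.83) and C3ar1 (0.83). For P2rx4 they were Dnase2a (0.90), Mfsd12 (0.88) and Tmem104 (0.85), for P2rx7 Pisd (0.87), Mpp1 (0.86) and Slc45a4 (0.86), and for Entpd1 Naa50 (0.83), Slc25a45 (0.82) and again Unc93b1 (0.82). P2ry10 went with Btf3 (0.91), Gltscr2 (0.90) and Hnrnpa1 (0.90), and P2ry14 with Klhl6 (0.75), Gna15 (0.74) and Uspl1 (0.73). Adora2a went with Gyg (0.74), Il2ra (0.73) and Pdcd1lg2 (0.72), Adora2b with Emp3 (0.78), Vamp4 (0.77) and Nptn (0.76), and Nt5e with Fbxo32 (0.79), Aimp2 (0.77) and Rnf128 (0.77).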

How the data were processed

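UMI counts per gene and barcode were measured in 2 libraries made with the 10x Genomics 3' chemistry version 2. The authors deposited raw counts for all 737280 barcodes of each library, made with Cell Ranger 2.2.0 on mm10, per the submitters' processing notes. The annotation and strand setting were not given in the sources used here. Cells were barcodes past the UMI threshold of that Cell Ranger version (2112 and 1905), with at least 200 genes, at most 10% mitochondrial UMIs, and 30 and 12 Scrublet doublets removed. Leiden clusters (scanpy 1.11.5, resolution 1.0) were built from 14005 genes, without the members, the other purinergic genes and 13993 held-out genes in all. A cluster took the name with the largest share of fixed markers raised (at least 3). The rules that no other class lead its top 10 genes and that clusters over 90% from 1 library stay apart were set after the clusters were seen, and the members and lists were chosen with earlier results of these data known.

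Counts were summed per library and class (13 classes and clusters, 26 sums) and tested with edgeR 4.0.16 (filterByExpr, TMM, quasi-likelihood fit, library as a block, since its classes share a capture, 12 residual degrees of freedom), called at an adjusted p under 0.05. The fit was tested on simulated data. Genes named beside the members were, per comparison, up to 3 called genes of the other lists with the largest absolute fold, and the 3 most similar held-out genes of each member. Per-library log2 values used a prior count of 2. Promoters came from RefSeq and positions from GENCODE M21. Alternatives were DESeq2 1.42.0, RLE size factors, no filter, no block, other clusterings, a cell-by-cell gate, a threshold of 1000 UMIs and no doublet removal.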

Additional observations from a re-analysis of the deposited data

How the results depend on the processing

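Of 21 called differences of a member, 14 kept their call and direction under every alternative that gave them a value, and over all 227 values 204 kept the call, 23 lost it and 0 reversed. Of 39 differences not called, 30 stayed so throughout. The number of members called in mature DC-like minus cDC2-like cells (2) was 4 with barcodes of at least 1000 UMIs, 3 with no filter on low counts, 0 with the cell-by-cell gate, and 1 each with DESeq2, RLE size factors, no doublet removal, no replicate block and Leiden resolutions 0.5 and 2.0. In monocyte-like minus macrophage-like cells (6) it was 1 with the gate and 3 at resolution 2.0, and the genes called of all tested (1179) were 392 and 659. In resident macrophage-like minus macrophage-like cells (0) it was 1 with at least 1000 UMIs (Adora2b), with no filter and with RLE factors (P2rx7 in both). The cause was not tested. The class with the highest share of cells was the same in 6 of 10 members without thinning. Without the replicate block, which pairs the classes of a library, the other comparisons kept their counts within 1 member. Comparisons of resident macrophage-like cells could not be run in 4 alternatives. At resolution 2.0 and without doublet removal their clusters (203 and 245 cells) were over 90% from replicate 1 and stayed apart, the gate gave 11 and 1 cells, and at resolution 0.5 no cluster took the name. Placing the Cxcl9/Dnase1l3 cluster with monocyte-like cells or the Cd7/Ly6c2 cluster with cDC2-like cells, both chosen after seeing the data, gave counts within 1 of the main ones. Each library alone leaves no residual degrees of freedom, so it gives values without a test. Depth limits Adora2a (65 UMIs) and Nt5e (111 UMIs) most.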

Other observations

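Some cells lay outside every comparison because they were found in 1 library or nearly so. The Cxcl9/Dnase1l3 cluster had 49 cells in replicate 1 and 3 in replicate 2. In replicate 1 it held 55 UMIs of P2rx4 (143 CPM without TMM), 40 of Entpd1 (104 CPM), 28 of P2ry6 (72.8 CPM), 13 of Adora2b (33.8 CPM) and 11 of P2ry14 (28.6 CPM), and no UMI of Nt5e. The 16 neutrophil-like cells, all from replicate 2, held 5 UMIs of Nt5e and 4 of Entpd1 and none of P2ry6, P2ry10, P2ry12, P2rx4 or P2rx7. The 15 B cell-like cells, also all from replicate 2, held 4 UMIs of P2rx4 and 3 of P2ry10.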
